A study of Sus scrofa with 35 samples.

Results

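The genes described here are 9 interferon-stimulated genes, MX1, MX2, OAS1, RSAD2, IFIT1, IFIT3, ISG15, USP18 and IRF7, measured in whole blood of growing pigs. They were chosen by name from a list of well known interferon targets, and the probes were those that carry one of these names in the scanner files. This found 25 probes for 8 of the 9 genes. No probe carried the name RSAD2, but 2 probes named IRG6 bear a RefSeq accession that belongs to RSAD2, an older name of the same gene, and were added. The 9 genes thus had 27 probes of the 39072 in the deposited table, and are 9 of 8898 genes with a symbol there. All 27 probes were well above background on all 35 arrays, so none was lost to a filter on low values.

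Blood RNA came from 35 castrated male pigs, with 1 one-colour array for each pig. The breeds were Creole (CR), a local breed of the Caribbean, Large White (LW), a commercial European breed, and their cross (F1). Pigs were sampled in thermoneutral (TN) conditions at 24 °C or after heat stress (HS), for which the sample labels give 30 °C and the protocol text 32 °C over 5 days. There were 5 CR TN pigs, and 6 pigs in each of the groups CR HS, F1 TN, F1 HS, LW TN and LW HS. According to the methods of the study, TN pigs were slaughtered before the temperature was raised. Climate and day of slaughter thus cannot be told apart. Those methods also state that the pigs included littermates and that some HS pigs had fewer than 5 days of heat. The labels identify neither. Each value is a log2 intensity after quantile normalization, so a difference of 1 is a doubling.

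Between 55.2% and 68.0% of probes were well above background on an array, and F1 TN arrays had the lowest mean, 60.02% ± 3.35 (SD, n = 6) against 65.1% ± 1.59 in F1 HS (n = 6). The arrays lay on 5 slides, each with HS and TN pigs. In whole blood, fewer cells of a type and less RNA per cell cannot be told apart.

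Interferons are secreted proteins that cells release on sensing viral nucleic acid. They bind receptors on neighbouring cells, and the JAK kinases and STAT transcription factors downstream switch on a shared set of genes. Among the 9 genes, MX1 and MX2 are dynamin-like GTPases that block virus particles. OAS1 makes a small messenger that activates an RNA-degrading enzyme, and RSAD2 (viperin) is a radical SAM enzyme that inhibits the replication of many viruses. IFIT1 and IFIT3 bind foreign RNA and each other. ISG15 is a ubiquitin-like protein joined to other proteins, USP18 removes it and also dampens the interferon receptor, and IRF7 is the transcription factor that amplifies interferon production. In the pig RefSeq annotation, MX1 neighbours MX2 and IFIT1 neighbours IFIT3.

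The probes are DNA oligonucleotides of 60 bases, and the following are shown because the results turn on how probes of a gene behave. Genome positions of the probes were not used here. The 2 ISG15 probes overlap over 55 bases, with the substitution T44C counted from the 5′ end of the first, which is in capitals in both.
ISG15 probe A_72_P441219: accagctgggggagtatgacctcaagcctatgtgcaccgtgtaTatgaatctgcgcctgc
ISG15 probe O11065: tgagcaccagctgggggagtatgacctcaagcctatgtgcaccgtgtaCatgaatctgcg
OAS1 probe A_72_P223657, of the gene that varied most: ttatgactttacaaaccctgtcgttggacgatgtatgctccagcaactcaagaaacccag
MX1 probe A_72_P444250, which shares no long run with the other 6 MX1 probes: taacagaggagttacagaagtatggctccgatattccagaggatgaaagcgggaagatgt
IFIT1 probe A_72_P489826, of the gene that did not follow the others: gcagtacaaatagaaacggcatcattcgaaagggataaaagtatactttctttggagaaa
IRF7 probe A_72_P077861, which disagreed with the brighter IRF7 probe: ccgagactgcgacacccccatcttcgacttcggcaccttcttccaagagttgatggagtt

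Each gene is represented below by its brightest probe among those well above background on the most arrays. The main pattern in these genes was a wide spread between pigs of the same group. The SD within groups was 1.52 log2 for OAS1 and 1.24 for MX1, followed by RSAD2 with 0.83, ISG15 with 0.72, IFIT1 with 0.69, MX2 with 0.67, IFIT3 with 0.61, IRF7 with 0.60 and USP18 with 0.54. The median SD of all 39072 probes was 0.268, and 92.2% of probes had a smaller SD than USP18 and 99.8% a smaller SD than OAS1. Some other probes of these genes spread less. The SD was 0.284 for USP18 A_72_P417087, 0.294 for IRF7 O9025, 0.429 for IRF7 A_72_P077861 and 0.402 for MX2 A_72_P444240. The remaining probes that do not represent a gene had 0.615 to 1.31. Differences between the 6 groups accounted for 40.99% of the variance of IFIT1, 29.5% of that of MX2 and 23.0% of that of IFIT3, and for 2.66% to 15.04% in the other 6 genes, against a median of 25.0% over all probes. IRF7 had the smallest share. With few pigs in a group, the spread between pigs alone also gives some share, which was not computed.

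**Figure D1:**
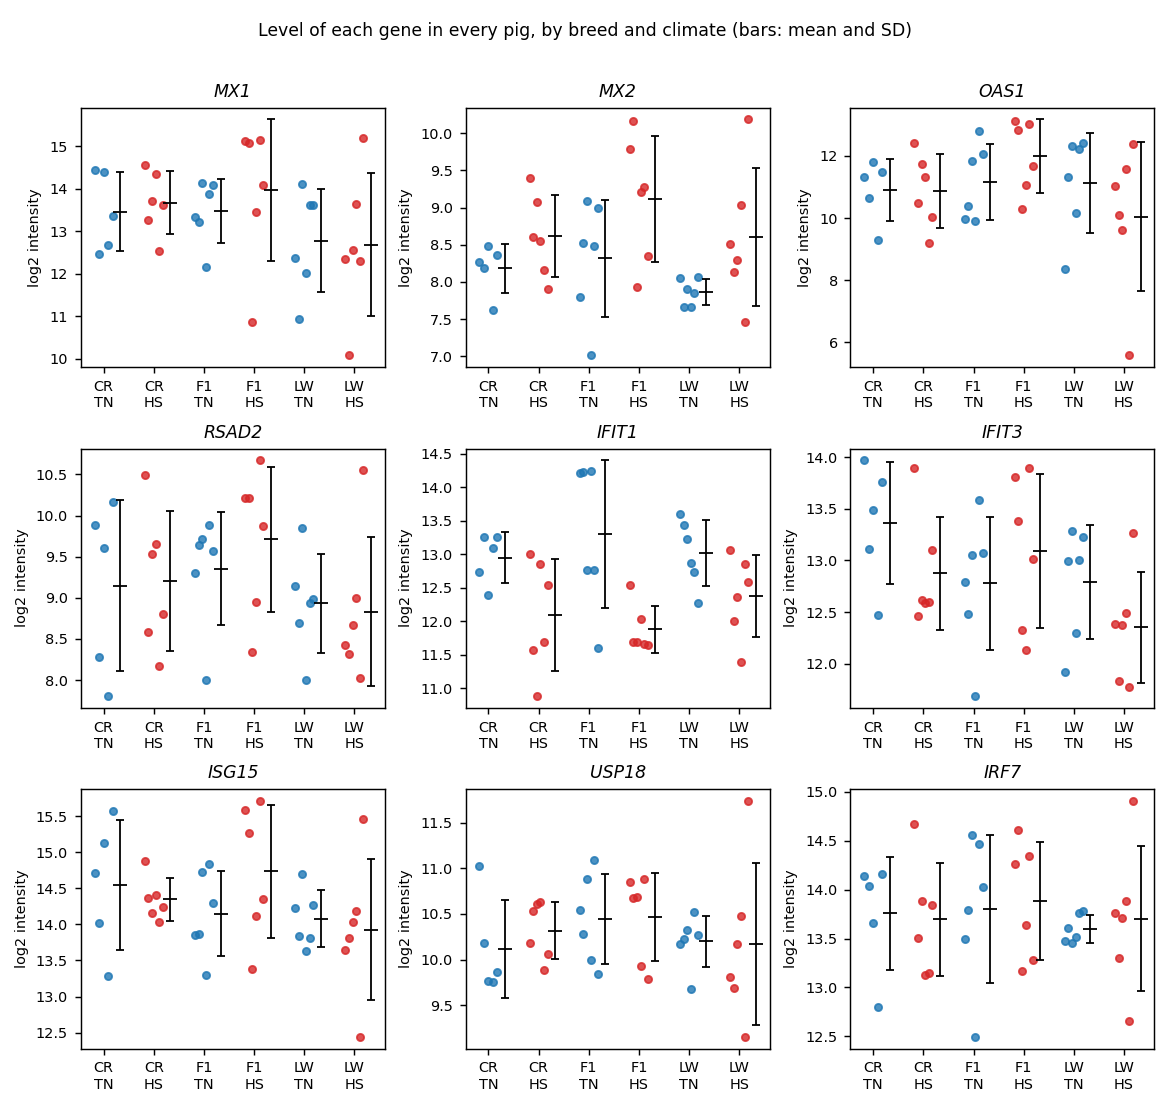
Log2 intensity of the representative probe of each gene (y axis, own scale for each panel) in every pig, by breed and climate (x axis; blue TN, red HS), with the mean and SD of each group as a black bar. Pigs of 1 group span several log2 units for OAS1 and MX1, and the IFIT1 points of HS pigs lie mostly below those of TN pigs.

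OAS1 showed the widest range of the 9 genes. In CR TN pigs, its log2 intensity was 11.31, 10.65, 11.79, 9.28 and 11.48. In CR HS pigs, it ran from 9.18 to 12.42 with a median of 10.90. F1 TN pigs lay between 9.89 and 12.79 (median 11.12) and F1 HS pigs between 10.28 and 13.11 (median 12.25). LW TN pigs lay between 8.36 and 12.40 (median 11.77). LW HS pigs reached from 5.58 to 12.39 (median 10.57), so the lowest pig of all was in this group, and the highest was F1 HS replicate 1. The lowest and the highest pig differed by 185-fold, and all groups overlapped. The other OAS1 probe followed the first with r = 0.987 over the 35 pigs, after removal of group means.

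MX1 ranged from 10.09 in LW HS replicate 2 to 15.18 in LW HS replicate 6, both in the same group, a 34.2-fold difference. In CR TN pigs, the values were 14.43, 12.47, 14.39, 12.68 and 13.35. LW HS had the lowest median of the other groups, 12.45, with LW TN at 13.00. F1 TN and CR HS had medians of 13.61 and 13.66. In F1 HS pigs the median was 14.59 and MX1 ran from 10.86 to 15.15, against 12.15 to 14.14 in F1 TN pigs. The 7 MX1 probes had r between 0.964 and 0.998 with each other, also where probes share no long run of bases.

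ISG15 was measured by 2 overlapping probes that had r = 0.994 with each other in spite of the substitution. In CR TN pigs, its log2 intensity was 14.72, 14.02, 15.12, 13.29 and 15.57. The narrowest group was CR HS, from 14.03 to 14.88 (median 14.30), and the widest LW HS, from 12.44 to 15.46 (median 13.92). F1 TN pigs lay between 13.29 and 14.84 (median 14.08), F1 HS pigs between 13.39 and 15.71 (median 14.81) and LW TN pigs between 13.64 and 14.70 (median 14.03).

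The range over pigs was 7.29-fold for RSAD2, 9.01-fold for MX2, 10.3-fold for IFIT1, 4.87-fold for IFIT3, 9.63-fold for ISG15, 5.98-fold for USP18 and 5.33-fold for IRF7. In USP18, which removes ISG15 from proteins, CR TN replicate 1 stood at 11.03, while the other 4 pigs of that group lay between 9.75 and 10.18. In IRF7, the LW TN pigs lay close together, between 13.45 and 13.78, while LW HS pigs ran from 12.65 to 14.91. The 2 RSAD2 probes had r = 0.948 with each other, and the 3 IFIT3 probes r between 0.760 and 0.938.

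In the order of the group means, F1 HS was highest for 7 of the 9 genes, namely MX1, MX2, OAS1, RSAD2, ISG15 (14.73 ± 0.93, SD, n = 6), USP18 and IRF7. IFIT3 was highest in CR TN with 13.36 ± 0.59 (n = 5) and IFIT1 in F1 TN with 13.30 ± 1.102 (n = 6). LW HS had the lowest mean of MX1 (12.68 ± 1.68), OAS1 (10.05 ± 2.41), RSAD2 (8.83 ± 0.91), IFIT3 (12.35 ± 0.54) and ISG15 (13.93 ± 0.97, all n = 6). None of the 45 differences between neighbouring groups in these orders passed the threshold, and 0 had an unadjusted p under 0.05. The smallest was for MX2 between CR TN and LW TN (difference 0.32, two-sided exact permutation p = 0.0779, adjusted p = 0.996). No order of neighbouring groups was thus resolved beyond the spread between pigs. Neighbours in an order by mean are the closest groups, so this does not bear on groups farther apart.

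Pigs that were high for one gene of the group were high for most others. After removal of the group means, all 28 pairs among the 8 genes other than IFIT1 were positively correlated over the 35 pigs, with Pearson's r from 0.501 to 0.874 and a median of 0.716, and Spearman's rho from 0.438 to 0.882. All 28 passed the threshold after adjustment over the 36 pairs tested (largest adjusted p = 0.0168 for r and 0.028 for rho, two-sided permutation of pigs within groups). The closest pair was RSAD2 with ISG15 (r = 0.874, rho = 0.882, permutation p = 1e-05, the smallest that the permutations can give, adjusted p = 2.77e-05). MX2 with IRF7 followed at r = 0.860, and RSAD2 with IFIT3 at 0.811. The lowest r were those of USP18 with MX1, IFIT3, RSAD2, MX2, OAS1 and ISG15, from 0.501 with MX1 to 0.594 with ISG15, and USP18 with IRF7 had 0.627. Without the 2 pigs farthest from the median of the first gene, r ranged from 0.396 for MX2 with USP18 to 0.845 for OAS1 with RSAD2.

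IFIT1 did not share this pattern. Its r with the other 8 genes was below 0 in all 8 pairs, from -0.312 with OAS1 to -0.04 with RSAD2, and none passed the threshold (smallest adjusted p = 0.0984 in the permutation test). With IFIT3, its neighbour in the genome and binding partner, r was -0.13. The 3 IFIT1 probes had r from 0.869 to 0.960 with each other. Their r with ISG15 was -0.14, -0.11 and -0.05. The difference between the r of IFIT1 and those of the other genes was not tested.

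**Figure D2:**
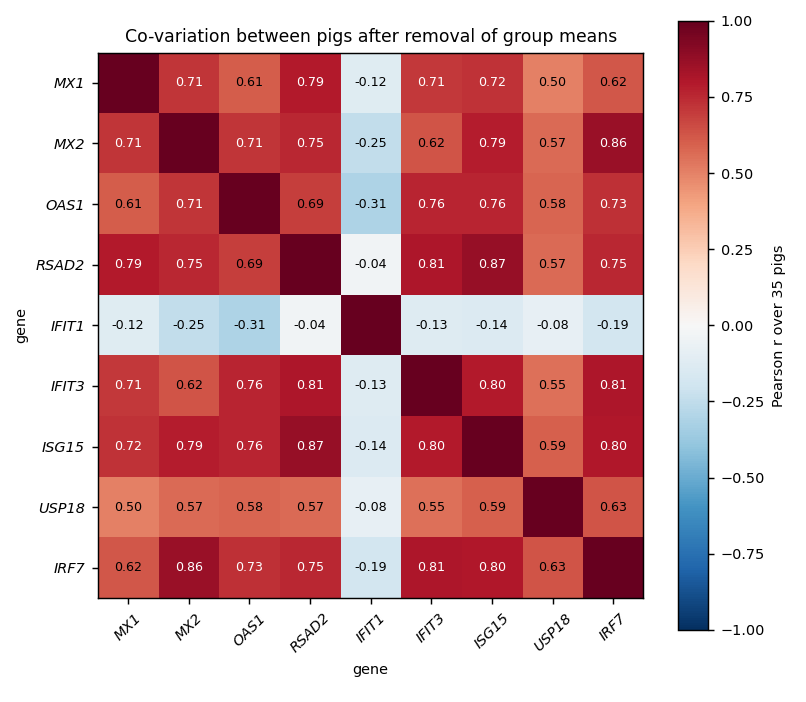
Pearson r of each pair of the 9 genes over 35 pigs after removal of group means (both axes list the genes; red above 0, blue below 0). The 28 pairs without IFIT1 lie between 0.501 and 0.874, and the row of IFIT1 lies between -0.312 and -0.04.

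The co-variation was also seen within slides. With slide means removed as well, the 28 pairs had r from 0.525 to 0.866. Within the 4 slides with 7 or 8 arrays, the median r of the 28 pairs was 0.613, 0.715, 0.806 and 0.812. In the slide of 7 arrays, USP18 was negatively correlated with all 7 others, so that 21 of the 28 pairs were above 0, against 28 of 28 in the other 3. The slide with 4 arrays was too small. The median r over all 36 pairs was 0.66 with a jackknife SE over pigs of 0.084. It was 0.59 in TN pigs, 0.72 in HS pigs, 0.59 in CR, 0.76 in F1 and 0.71 in LW pigs. It was 0.62 without RSAD2, which was matched through its older name, and between 0.61 and 0.69 with any 1 pig left out, lowest without LW HS replicate 6.

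The pigs can be ordered by their mean deviation from the group over the 9 genes. Deviations were not scaled, so genes with a larger SD, OAS1 above all, weigh more in this order. LW HS replicate 6 was the highest, 1.51 log2 above its group on average, with all 9 genes above the group mean. It had 15.18 for MX1, 10.19 for MX2, 12.39 for OAS1, 10.55 for RSAD2, 15.46 for ISG15, 11.74 for USP18 and 14.91 for IRF7, and held the highest value of all pigs for 4 genes, MX1, MX2, USP18 and IRF7. LW HS replicate 5, of the same breed and climate, was the lowest, 1.16 log2 below its group. This pig had 5.58 for OAS1, 7.46 for MX2, 12.44 for ISG15, 9.15 for USP18 and 12.65 for IRF7. Its IFIT1 value of 12.86 lay above the LW HS mean of 12.38. F1 TN replicate 4 combined the lowest value of all pigs for MX2 (7.01), IFIT3 (11.69) and IRF7 (12.49) with the highest for IFIT1 (14.25). In 9 pigs all 8 genes other than IFIT1 lay above their group means, and in 5 pigs all 8 lay below. High and low pigs occurred in every breed and in both climates.

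**Figure D3:**
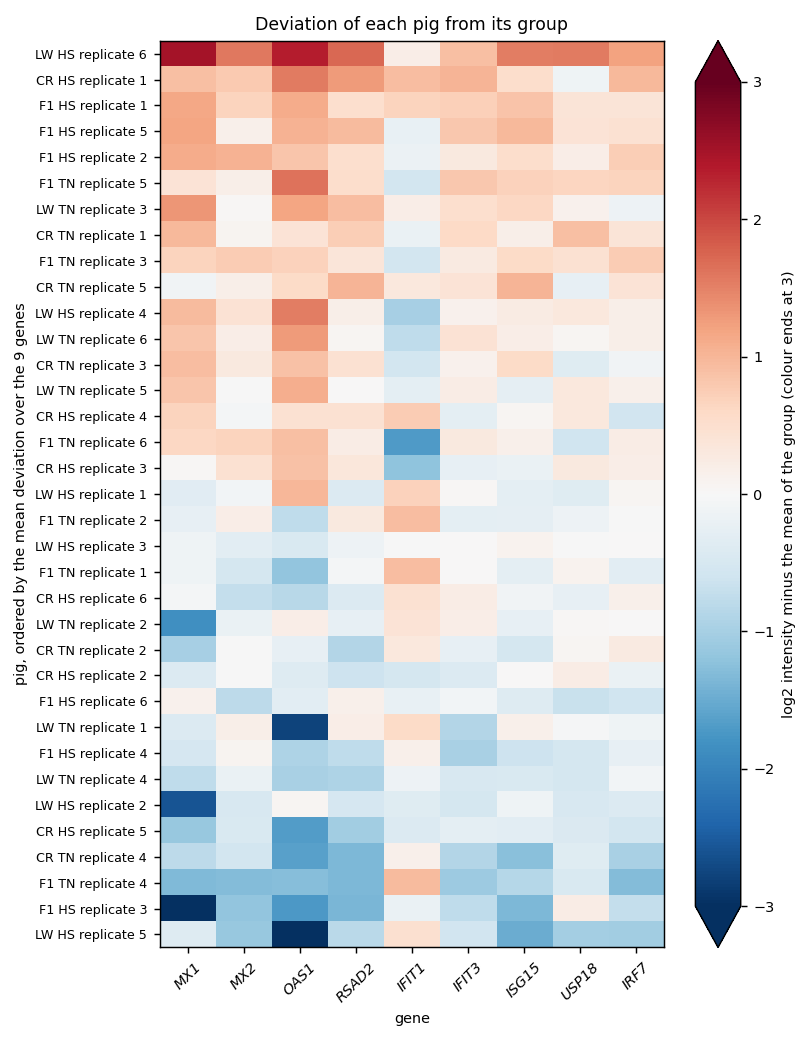
Deviation of every pig (rows, ordered by the mean over the 9 genes) from the mean of its group, in log2 intensity, for each gene (columns); red is above and blue below the group mean. Rows are mostly of 1 colour apart from the column of IFIT1, from LW HS replicate 6 at the top to LW HS replicate 5 at the bottom.

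Of the genes outside the 9, those most alike included several known to respond to interferon. Likeness was Pearson's r with the mean of the 9 genes over 35 pigs after removal of group means, over 8764 genes, of which 113 (1.29%) had r above 0.5. The 10 highest were DHX58, ZNFX1, IFI6, ISG20, ZBP1, TDRD7, HERC5, PARP12, RTP4 and IFIT5. DHX58, a regulator of the RNA sensors, had r = 0.914 and ZNFX1, an RNA helicase, 0.914. IFI6 followed with 0.904, ISG20, an exonuclease that degrades viral RNA, with 0.898, and ZBP1, a sensor of nucleic acid in the Z form, with 0.862. HERC5, the ligase that attaches ISG15 to proteins, had 0.854 and IFIT5, the last of the 10, had 0.796. With IFIT1 left out of the mean, 9 of these 10 genes were shared, and HSH2D took the place of IFIT5.

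In the list of other interferon-stimulated genes, 22 of 30 measured genes (of 52 named) had r above 0.5 with the mean of the 9, and the median r was 0.63. EIF2AK2 (PKR), the kinase that stops translation on double-stranded RNA, had 0.766, OAS2, a relative of OAS1, 0.764, and IFIT2 0.780. Of 11 measured JAK, STAT and IRF genes, 2 were above 0.5, among them IRF9, a part of the transcription factor of the response to type I interferon, with 0.600. JAK1 had 0.04 and JAK2 -0.12. Of the 14 sensors, 4 were above 0.5, DHX58, ZBP1, DDX58 (RIG-I, 0.644, well above background on 20 arrays) and MB21D1 (cGAS, 0.538). None of the 6 measured ligands and receptors and none of the 6 negative regulators was above 0.5, the closest being SOCS3 with 0.490. These values are over the same arrays and are given as a description.

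The genes most like IFIT1 were others. This ranking was added after the values had been seen. The highest r with IFIT1 was that of TMEM59 (0.903). CCT2, a chaperonin subunit, AZIN1, a regulator of polyamine synthesis, and DEK, a chromatin protein, had 0.835, 0.834 and 0.800. In the list of other interferon-stimulated genes, r with IFIT1 ran from -0.788 for IFI35 to 0.756 for SAMD9. SAMD9 had r = 0.113 with the mean of the 9. Over the 11 measured erythroid genes of 12 named, the mean log2 had r = 0.618 with IFIT1 (rho = 0.572, permutation p = 0.00029, adjusted p = 0.0195 over 100 relations of genes with cell type lists and array measures, and r = 0.620 without the 2 pigs farthest out). For the other 8 genes r with the erythroid mean was between -0.43 and -0.09, none past the threshold. For IFIT1, r was also -0.42 with the log2 of the array's 75th percentile intensity and -0.45 with the share of probes well above background, neither past the threshold (adjusted p = 0.212 for both, permutation test).

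**Figure D4:**
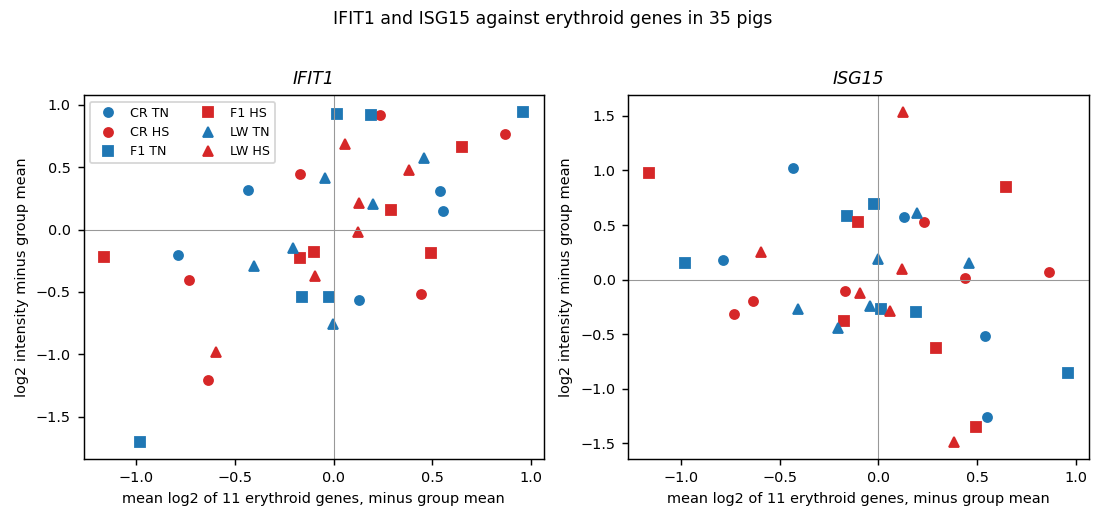
Log2 intensity of IFIT1 (left) and ISG15 (right) minus the mean of the group (y axis) against the mean log2 of 11 erythroid genes minus the mean of the group (x axis) in 35 pigs; colour gives the climate (blue TN, red HS) and shape the breed. IFIT1 rises with the erythroid mean (r = 0.618) and ISG15 does not (r = -0.32).

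The design asked whether blood transcripts change under HS and whether breeds differ. Over the 3 breeds, IFIT1 fell under HS on all 3 of its probes, MX2 rose on 1 of 3 and IRF7 fell on 1 of 3. The other 6 genes did not pass the threshold on any probe. In total 5 of 27 probes passed in limma (adjusted p under 0.05), 1 higher and 4 lower, while 34.8% of all 39072 probes passed, 20.1% higher and 14.7% lower. The median difference of the 27 probes was 0.08, against 0.06 over all probes. All limma fits here treat pigs that shared a pen, parents or a slaughter day as independent. Their SEs and p-values may therefore be too small, and the study's own model, which held these effects, gave far fewer differential probes in blood.

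For IFIT1, the CR TN values were 12.74, 13.26, 12.39, 13.09 and 13.26. CR HS pigs ran from 10.88 to 13.01 (median 12.11). F1 TN pigs ran from 11.60 to 14.25 (median 13.49) and F1 HS pigs from 11.65 to 12.54 (median 11.69). LW TN pigs ran from 12.27 to 13.60 (median 13.05) and LW HS pigs from 11.39 to 13.06 (median 12.47). HS and TN overlapped in each breed, but 16 of 18 HS pigs lay below the TN mean of their breed. The difference was -0.98 ± 0.22 (SE, limma, adjusted p = 0.00221), a 1.97-fold lower level under HS, and -0.89 ± 0.21 and -0.89 ± 0.24 on the other probes (adjusted p = 0.00272 and 0.00566). Within breeds it was -0.86 ± 0.40 in CR, -1.42 ± 0.38 in F1 and -0.64 ± 0.38 in LW pigs, and passed only in F1 (limma adjusted p = 0.557, 0.0045 and 0.604). The interaction of breed and climate did not pass (adjusted p = 0.637), so a difference between breeds is not shown.

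The erythroid list moved with IFIT1. Its mean was 10.5 to 11.9 in CR TN and 10.2 to 11.7 in CR HS, 10.8 to 12.7 in F1 TN and 9.51 to 11.3 in F1 HS, and 10.99 to 11.9 in LW TN and 10.5 to 11.5 in LW HS. Of its 11 measured genes, 4 fell and 1 rose under HS, with EPB42, a red cell skeleton protein, at -0.92 ± 0.20 and EPB41, another, at -0.88 ± 0.20 (limma adjusted p = 0.00198 and 0.0022). No marker was at background on all arrays, and the globin gene HBA was not measured under that name. With the erythroid mean as a covariate, the IFIT1 difference was -0.50 ± 0.20 and did not pass (limma adjusted p = 0.174), and 1 of all 39072 probes passed. The part of red cells in the result was not tested. Without F1 pigs it was -0.75 ± 0.23 (adjusted p = 0.194), and 0 of all probes passed (6845 at an unadjusted p under 0.05). With slide as a block it was -0.98 ± 0.22. Differences within a slide mix the breeds, and on slide 5, with 1 CR HS, 1 F1 HS and 2 LW TN pigs, climate and breed cannot be told apart. For IFIT1 they were -0.88, -1.44, -1.54 and -0.43 on slides 1 to 4 and -0.41 on slide 5.

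MX2 was the only one of the 9 genes with a probe that rose. In CR TN pigs, the values were 8.27, 8.18, 8.48, 7.63 and 8.37, and CR HS pigs ran from 7.90 to 9.40 (median 8.58). F1 TN pigs ran from 7.01 to 9.09 (median 8.51) and F1 HS pigs from 7.93 to 10.16 (median 9.24). LW TN pigs lay close together from 7.66 to 8.06 (median 7.88) and LW HS pigs ran from 7.46 to 10.19 (median 8.40). Although the groups overlapped, 14 of 18 HS pigs lay above the TN mean of their breed. The difference over the 3 breeds was 0.66 ± 0.21 (SE, limma, adjusted p = 0.0159), 1.58-fold. It was 0.48 ± 0.22 on the second MX2 probe (adjusted p = 0.0827) and -0.12 ± 0.13 on the third and dimmest (adjusted p = 0.479) and the probes thus differed. The third had r = 0.740 with the first between pigs. The MX2 difference was 0.47 ± 0.24 with the erythroid covariate (adjusted p = 0.27) and 0.59 ± 0.22 without F1 pigs (adjusted p = 0.225). Within slides 1 to 4 it was 1.39, 0.01, 0.79 and 0.67, and on slide 5 it was 0.16.

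IRF7 gave different results on its probes. On the brightest, A_72_P065236, the difference between HS and TN was 0.04 ± 0.19 (limma adjusted p = 0.873). On A_72_P077861, whose sequence is shown above, the CR TN values were 12.75, 13.63, 13.14, 13.27 and 13.40, and CR HS pigs ran from 11.89 to 13.44 (median 12.79). F1 TN pigs ran from 13.50 to 14.27 (median 13.73) and F1 HS pigs from 11.87 to 13.01 (median 12.72), without overlap. How many of all probes were as separate in F1 pigs was not counted, and 38.7% of all probes passed for HS minus TN there. LW TN pigs ran from 12.84 to 13.80 (median 13.28) and LW HS pigs from 12.66 to 13.68 (median 12.95). This probe fell by 0.66 ± 0.15 (SE, limma, adjusted p = 0.00241), with 14 of 18 HS pigs below the TN mean of their breed. The third probe, O9025, had -0.14 ± 0.10 (adjusted p = 0.252). Between pigs, A_72_P077861 had r = 0.436 with the brightest probe and 0.772 with O9025, while the brightest had 0.709 with O9025. With ISG15 it had r = 0.303, against 0.801 for the brightest. Which transcript the probe measures was not checked here. It had r = -0.65 with the mean of 6 T cell genes (permutation p = 0.00039, adjusted p = 0.0195), which encode parts of the T cell receptor complex, the kinase LCK and CD2. Their mean was 10.9 to 11.2 in F1 TN and 10.99 to 11.8 in F1 HS pigs, 10.7 to 11.7 in CR TN and 10.6 to 11.6 in CR HS, and 11.2 to 12.1 in LW TN and 11.4 to 11.7 in LW HS. Of the 6, 1 rose under HS over the 3 breeds, while 20.1% of all probes were higher. The part of these genes in the result was not tested. A_72_P077861 also had r = -0.48 with the log2 of the array's 75th percentile intensity, not past the threshold (adjusted p = 0.212, permutation test). That intensity was 7.21 ± 0.28 (SD) in F1 TN and 7.88 ± 0.24 in F1 HS arrays, and its part was not tested either. With the erythroid covariate, the difference was -0.45 ± 0.16 (adjusted p = 0.143), and without F1 pigs -0.37 ± 0.18 (adjusted p = 0.279). Within slides 1 to 4 it was -0.14, -0.73, -0.92 and -0.69, and on slide 5 it was -0.95.

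The other genes showed small differences between climates over the 3 breeds. The representative probe of MX1 had 0.20 ± 0.38, OAS1 -0.10 ± 0.49, RSAD2 0.11 ± 0.26, IFIT3 -0.19 ± 0.20, ISG15 0.09 ± 0.23 and USP18 0.06 ± 0.17 (SE, limma, smallest adjusted p = 0.459, for IFIT3). None of these passed within a breed either, where OAS1 had -0.04 ± 0.87 in CR, 0.84 ± 0.83 in F1 and -1.08 ± 0.83 in LW pigs, and IFIT3 -0.49 ± 0.35, 0.31 ± 0.33 and -0.44 ± 0.33. Over the breeds, OAS1 had -0.72 ± 0.53 with the erythroid covariate and -0.59 ± 0.63 without F1 pigs, and IFIT3 -0.52 ± 0.20 and -0.46 ± 0.21, none past the threshold (limma, smallest adjusted p = 0.172). For MX1, 10 of 18 HS pigs lay above the TN mean of their breed, for OAS1 and RSAD2 9 of 18, for ISG15 7 of 18, for USP18 10 of 18 and for IFIT3 6 of 18.

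**Figure D5:**
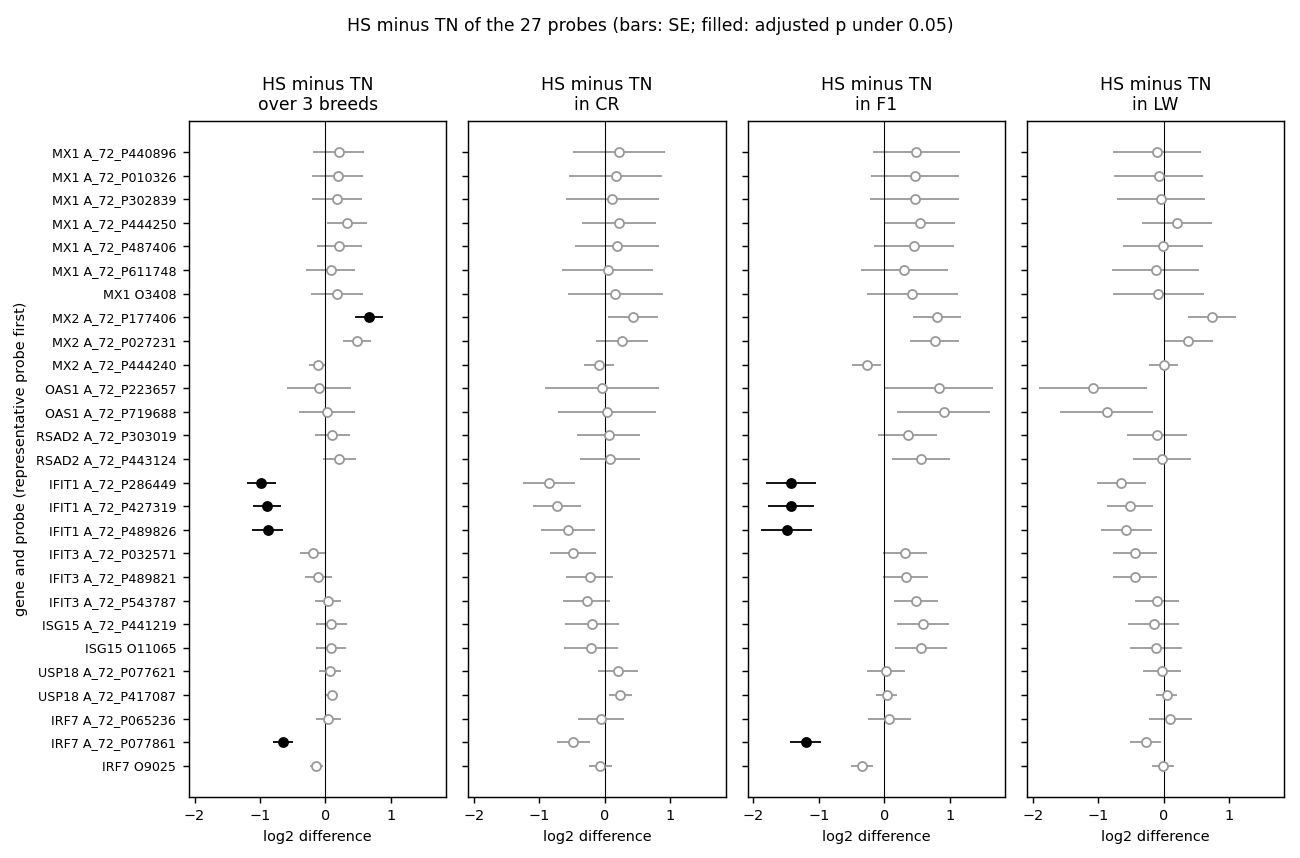
Log2 difference of HS minus TN (x axis) of the 27 probes (y axis, representative probe first within a gene) over the 3 breeds and in CR, F1 and LW pigs; bars are the SE and filled points have an adjusted p under 0.05 in limma. The 3 IFIT1 probes and IRF7 A_72_P077861 lie below 0 in all 4 panels, and MX2 A_72_P177406 above 0 in all 4.

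In F1 pigs, 4 of 27 probes passed for HS minus TN, all lower, against 38.7% of all probes, 17.9% lower. They were the 3 IFIT1 probes, with -1.42, -1.42 and -1.49, and IRF7 A_72_P077861 with -1.20 ± 0.24 (SE, limma adjusted p = 0.000458). With the erythroid covariate the IFIT1 differences in F1 pigs were -0.59, -0.65 and -0.73 and did not pass (limma adjusted p = 0.329, 0.243 and 0.274). The IRF7 probe had -0.94 ± 0.27 in that fit (limma adjusted p = 0.0442), where 1709 of all 39072 probes passed, 1394 of them lower. Of the 27 probes, 21 had a higher mean under HS in F1 pigs and 5 in LW pigs, but members share their pigs and these counts have no test of their own. In CR and in LW pigs, 0 of 27 passed, and limma called 0% of all probes there (3466 probes in CR and 3404 in LW pigs had an unadjusted p under 0.05). For the interaction, 0 of 27 passed, against 0% of all probes (5807 at an unadjusted p under 0.05), and the smallest adjusted p was 0.285, for IRF7 A_72_P077861.

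No probe of the 9 genes passed for a breed contrast. For CR minus LW, 0 of 27 passed in limma, against 1.08% of all probes, and 1 of 27 had an unadjusted p under 0.05, against 10.1%. The smallest adjusted p was 0.443, for IFIT3, with 0.53 ± 0.25. MX1 had a CR minus LW difference of 0.84 ± 0.47 (adjusted p = 0.605). For F1 minus CR, 0 of 27 passed, against 0.184% of all probes, and 1 of 27 at the unadjusted threshold, against 4.95%. For F1 minus LW, 0 of 27 passed, against 0.0256%, and 10 of 27 at the unadjusted threshold, against 4.48%, but these probes include several of the same gene and rise and fall together between pigs. The smallest adjusted p was 0.941 for F1 minus CR and 0.929 for F1 minus LW.

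The rest of the interferon pathway was read from lists of its ligands, receptors, signalling proteins and targets. Over the 3 breeds, 3 of 6 measured ligands and receptors rose and 1 fell (median 0.23). IFNAR2, a chain of the type I interferon receptor, had 0.24 ± 0.07, IFNGR2, a chain of the interferon gamma receptor, 0.31 ± 0.12 and IFNG, interferon gamma itself, -0.22 ± 0.07 (limma adjusted p = 0.0138, 0.0358 and 0.0189). Of 11 JAK, STAT and IRF genes, 3 rose and 0 fell (median 0.09), namely JAK1 (0.39 ± 0.10), IRF5 (0.34 ± 0.09) and STAT3 (0.28 ± 0.11), with limma adjusted p of 0.00324, 0.00646 and 0.0374.

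Of 14 sensors and their adaptors, 3 rose and 1 fell (median 0.14). MYD88, the adaptor of most Toll-like receptors, fell by 0.66 ± 0.13 (limma adjusted p = 0.00159), while IKBKE, a kinase of IRF factors, rose by 0.43 ± 0.11 and TMEM173 (STING), which carries the signal of cytosolic DNA, by 0.38 ± 0.10 (adjusted p = 0.00378 and 0.00381). Of 6 negative regulators, 2 rose and 1 fell (median 0.12). CISH, a suppressor of cytokine signalling, fell by 1.14 ± 0.22, NLRX1 rose by 0.44 ± 0.09 and the phosphatase PTPN6 by 0.25 ± 0.08 (limma adjusted p = 0.00159, 0.00159 and 0.0209).

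Of 30 further interferon-stimulated genes, 7 rose and 0 fell (median 0.15). IFI35 rose by 0.50 ± 0.09, TRIM25, the ubiquitin ligase of RIG-I, by 0.46 ± 0.11 and RTP4 by 0.56 ± 0.14 (limma adjusted p = 0.00159, 0.00327 and 0.00448). RTP4 was also among the 10 genes most like the 9 between pigs, with r = 0.801, whereas IFI35 had r = 0.265. Beside these counts stand the 20.1% of all probes that were higher and the 14.7% that were lower, and nothing particular to a list is read from them.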

How the data were processed

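Blood RNA of 35 pigs was hybridised to a custom porcine Agilent array. The authors read the arrays with Feature Extraction 10.10.1.1, and the deposited scanner files hold the intensity of each spot and its background. The authors also deposited log2 values of 39072 probes, for which they took each spot's median, quantile-normalized the arrays and kept expressed probes, and these were used here. Values recomputed from the scanner files had r = 0.999971 with them. All value columns carried a sample name. Groups came from the sample labels. Arrays have no counting depth, so their number sets the precision. No probe spot was saturated.

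Each probe was fitted in R 4.3.3 with limma 3.58.1 (lmFit and eBayes). An additive model of breed and climate gave climate and breed differences, and a model of 6 group means gave effects within breeds and the interaction. P-values were two-sided and adjusted by Benjamini-Hochberg over 39072 probes, with a threshold of 0.05. The study's pen, slaughter day and parent effects could not be fitted without labels. Pigs that shared a pen, parents or a slaughter day were thus treated as independent. This can make SEs and p-values too small and the shares of probes called too large. With those effects in its model, the study reported far fewer differential probes in blood than the 13601 called here over the 3 breeds. The additive fit was checked on simulated data. Correlations used 100000 permutations of pigs within groups, and neighbouring groups exact permutation.

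The 9 genes and all gene lists were chosen with earlier results of these data known. A gene was represented by the probe well above background on most arrays, ties by the higher mean. Named besides the 9 genes were up to 3 genes of a list with the smallest adjusted p for HS minus TN, and the 10 genes most like the mean of the 9, and some list genes are not reported here; other list genes named beside a correlation, the genes most like IFIT1 and the relations with cell type lists were picked after their values were seen. Cell type lists, each as the mean of its genes, were neutrophil, monocyte, T cell, B cell, cytotoxic, plasmacytoid dendritic cell, platelet and erythroid. Probes were matched to pig gene names by symbol, accession or synonym in a RefSeq table of the assembly Sscrofa11.1, used for names and neighbours only. Alternatives were other normalizations, filters, a slide block, array weights, an erythroid covariate and leaving out F1 pigs or each pig.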

Additional observations from a re-analysis of the deposited data

Results flagged for a closer look

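RSAD2 in F1 TN replicate 4 stood apart from its group. Its log2 intensity was 8.01, while the other 5 F1 TN pigs lay between 9.30 and 9.89, a gap of 0.688 of the range of the group. It was the only one of 54 groups of pigs (9 genes in 6 groups) in which the lowest or highest pig lay this far out by Dixon's criterion at 95%. Chance alone gives about 1 such group in 20. The same pig was the lowest of all for MX2, IFIT3 and IRF7 and the highest for IFIT1.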

How the results depend on the processing

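The 27 results were recomputed under 4 to 15 alternatives each, and 220 of 247 values kept their direction and side of the threshold (or, for the median r, moved by less than its SE, and for counts only slightly), as did 931 of 945 values with 1 of 35 pigs left out. These totals include many counts of 0 called probes that stayed 0, and settings that use the same intensities with another filter. They are thus no measure of how firm the called differences are. The 5 member probes called for HS minus TN over 3 breeds became 0 with the erythroid covariate, where 1 of all 39072 probes passed. They became 0 without F1 pigs, where 0 of all probes passed. The 4 called in F1 pigs became 1 with the erythroid covariate, where 1709 of all 39072 probes passed. The median r of the 36 pairs was 0.76 in F1 pigs only and 0.57 with IRF7 read from A_72_P077861, against 0.66. Differences that did not pass changed sign: MX1 to -0.14, RSAD2 to -0.19, ISG15 to -0.20 and IRF7 to -0.19 with the erythroid covariate, RSAD2 to -0.0393, ISG15 to -0.0112 and IRF7 to -0.0051 with array weights, and RSAD2 to -0.026 and ISG15 to -0.17 without F1 pigs. The cause was not tested. Leaving out a pig gave 5 to 6 called probes over 3 breeds and 4 to 6 in F1 pigs, and turned the sign of OAS1 in 5 fits, IRF7 in 5, and ISG15 and USP18 in 1 each, without LW HS replicate 6 (ranges -0.24 to 0.22, -0.0417 to 0.11, -0.0037 to 0.19 and -0.0347 to 0.13). No paired analysis was possible because the labels carry no number that groups share. Leaving out RSAD2 or IFIT1 and the other IRF7 probe were chosen after seeing the data. The pigs are 1 array each, so array and animal cannot be separated.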
